A study of Mus musculus with 12 samples.

Results

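Genes of zinc handling were followed in early mouse blastocysts: the metallothioneins Mt1 and Mt2, the zinc exporters Slc30a1 and Slc30a2, and the zinc-sensing transcription factor Mtf1. They were taken by symbol from the deposited expression table, in which 5 of 34245 genes carried these names, and they were chosen by their measured levels in earlier results of the same data, that is, by the difference between inhibited and control embryos. This difference is therefore described here and not tested. Each library held the polyadenylated RNA of a pool of 30 whole embryos from F1 hybrid (C57Bl6 x CBA/W) mice, grown in KSOM medium with amino acids until embryonic day 3.5 (E3.5). The embryos then received either the solvent DMSO (control) or 20 µM SB220025 dissolved in it (p38-MAPKi) for 4, 7, or 10 h, and 2 libraries were made for each of the 6 groups. A single inhibitor at a single dose was used, and the pools contained all lineages of the embryo, so that fewer cells of a type and less RNA per cell cannot be told apart.

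Metallothioneins are small, cysteine-rich proteins that bind zinc and copper and buffer the free metal in the cell. MTF1 is activated by free zinc and binds short DNA elements, the metal response elements, upstream of its targets, among which Mt1, Mt2, and Slc30a1 are the best known. SLC30A1 (ZnT1) exports zinc across the plasma membrane, and SLC30A2 (ZnT2) moves zinc into vesicles. Metallothionein mRNA is also known to respond to heavy metals, oxidative stress, and glucocorticoids, and it is inducible by metals in the preimplantation embryo.

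Mt1 (ENSMUSG00000031765.8) lies at chr8:94179082-94180327 and Mt2 (ENSMUSG00000031762.7) at chr8:94172664-94173568 of GRCm38, both on the plus strand and 5513 bases apart. The same cluster holds Mt3, 18517 bases upstream of Mt2, and Mt4, 13575 bases upstream of Mt3. Slc30a1 (ENSMUSG00000037434.7) lies at chr1:191906767-191913247, Slc30a2 (ENSMUSG00000028836.14) at chr4:134343181-134354484, and Mtf1 (ENSMUSG00000028890.13) at chr4:124802104-124849800, all on the plus strand. No stretch of 50 bases, the length of a read, in the annotated transcripts of any of the 5 genes occurred in the transcripts of another gene. Only the same direction was searched, and not the reverse complement. Antisense or opposite-strand genes overlapped 3 of them. Gm45774, antisense to Mt2, held 0 to 14 reads in a library and 1700034H15Rik, antisense to Slc30a1, held 0 to 28, whereas 1110065P20Rik, which overlaps Mtf1 on the opposite strand, held 175 to 435. An rRNA gene, n-R5s192, also overlaps Mtf1 on the same strand, and its reads were not examined. The strand setting of the counting is not given in the sources used here.

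The upstream sequences of Mt2, Mt1, and Slc30a1 are printed because these are the genes through which MTF1 is best known to act. All 5 genes matched an entry of the RefSeq promoter table (GRCm38.p6), and the window runs from 250 bases before the RefSeq start to 30 bases after it. Capitals mark matches to the core of the metal response element, searched as TGCACNC or TGCGCNC on both strands. The windows lie on the plus strand at chr8:94172368-94172647 for Mt2, chr8:94178839-94179118 for Mt1, and chr1:191906531-191906810 for Slc30a1.
Mt2: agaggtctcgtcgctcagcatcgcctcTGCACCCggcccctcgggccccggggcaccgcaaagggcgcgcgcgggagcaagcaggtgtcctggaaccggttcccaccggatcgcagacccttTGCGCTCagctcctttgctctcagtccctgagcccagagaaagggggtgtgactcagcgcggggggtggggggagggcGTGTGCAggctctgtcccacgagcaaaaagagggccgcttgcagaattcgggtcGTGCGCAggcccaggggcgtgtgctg
Mt1: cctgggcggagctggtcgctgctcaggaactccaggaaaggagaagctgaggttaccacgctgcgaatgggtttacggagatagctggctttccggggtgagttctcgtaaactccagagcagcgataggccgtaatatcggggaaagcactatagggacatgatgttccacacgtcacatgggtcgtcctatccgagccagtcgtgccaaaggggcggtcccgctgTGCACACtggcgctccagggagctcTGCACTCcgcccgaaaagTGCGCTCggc
Slc30a1: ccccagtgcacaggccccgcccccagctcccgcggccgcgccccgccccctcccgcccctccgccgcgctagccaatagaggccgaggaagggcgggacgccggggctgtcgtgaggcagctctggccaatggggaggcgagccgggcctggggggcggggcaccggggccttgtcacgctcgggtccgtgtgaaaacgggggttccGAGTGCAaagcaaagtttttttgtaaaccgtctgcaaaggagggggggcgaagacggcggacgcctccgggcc
Mt2 held 4 matches, Mt1 held 3, and Slc30a1 held 1. Of 32851 windows of the same length, 24.1% held at least 1 match, 1.73% at least 3, and 0.405% at least 4. The window of Mtf1 held 0 matches, that of Slc30a2 held 2, that of Mt4 held 1, and that of Mt3 held 0. RefSeq and GENCODE M21 place the starts differently. The first base of transcript Mt2-201 lay 46 bases downstream of the RefSeq start of Mt2, and that of Mt2-202 lay 242 bases downstream. The other 2 transcripts of Mt1 began 122 and 152 bases downstream of its RefSeq start. Transcript Slc30a2-201 began 243 bases downstream of the RefSeq start of Slc30a2. Sequence immediately before those starts is therefore not in the windows. A match to these letters is not evidence of binding.

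Expression is given in RPKM, reads per kilobase of gene scaled to 1000000 reads of the library. Whole reads could be recovered from the deposited values, which gave depths of 11242313 to 24457312 reads per library. The lowest depth was that of the first p38-MAPKi replicate at E3.5 + 7 h, in which 14033 genes had a read, against 16375 to 17677 in the other 11 libraries. Genes entered a test with a level of 1 RPKM or more in 2 or more of its 4 libraries, and all 5 members passed in every comparison. In the 6 control libraries Mt2 ranked 71st of 10720 genes by geometric mean (322 RPKM) and Mt1 288th (139 RPKM). Slc30a1 (7.73 RPKM) and Mtf1 (7.08 RPKM) lay near the middle, at ranks 5710 and 5969, and Slc30a2 (2.04 RPKM) lay at 9212. The lineages of the blastocyst were present in each library, with summed levels of 6 trophectoderm markers of 1734 to 2552 RPKM and of 6 epiblast markers of 186 to 258 RPKM, while 3 blood markers summed to at most 1.07 RPKM and 4 hepatocyte markers to at most 1.44 RPKM.

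**Figure D1:**
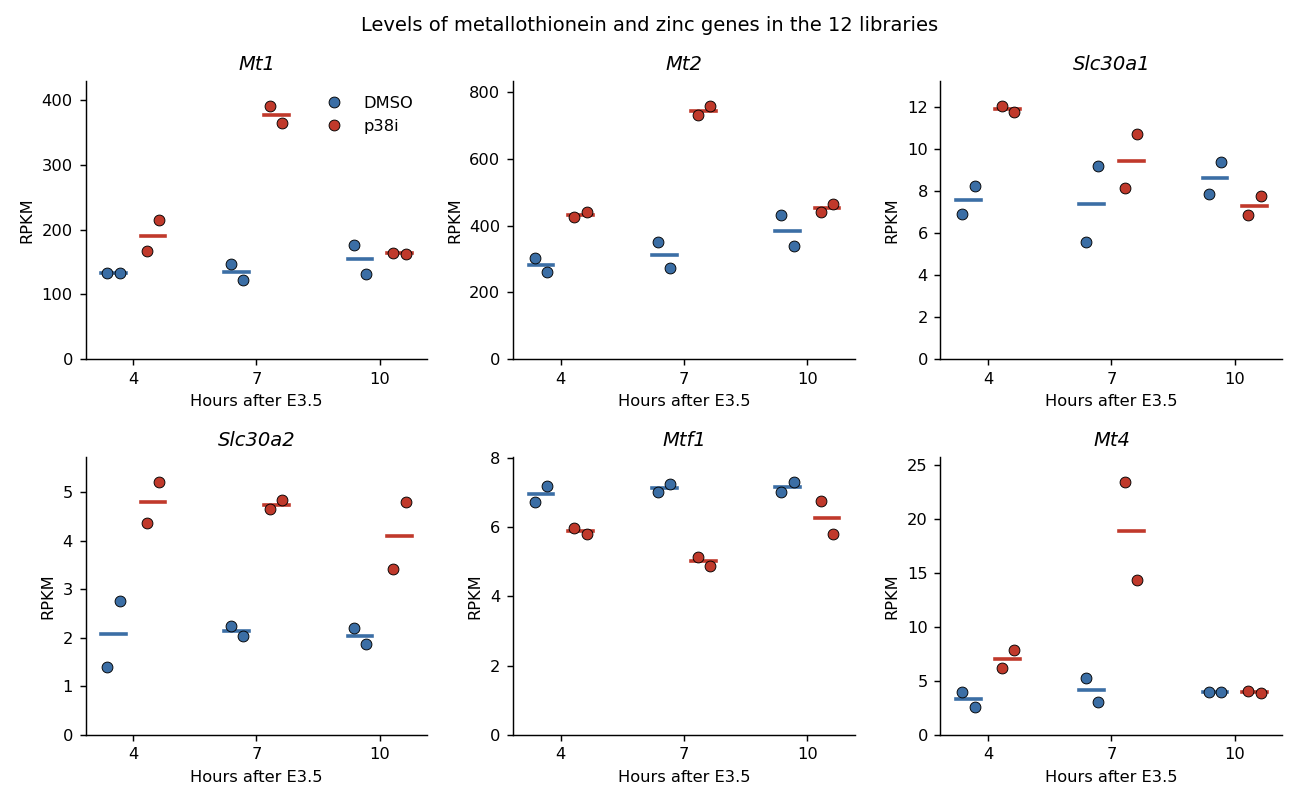
RPKM (y axis, linear from 0) of Mt1, Mt2, Slc30a1, Slc30a2, Mtf1, and Mt4 at 4, 7, and 10 h after E3.5 (x axis), with 1 point per library, blue for DMSO and red for p38i, and a line at the mean of the 2 libraries. The p38i points of Mt1 and Mt2 stand highest at 7 h, those of Slc30a2 lie above the DMSO points at each time, and those of Mtf1 lie below them.

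Mt1 stood higher under p38-MAPKi at 4 h and most clearly at 7 h, and the difference was no longer seen at 10 h. At 4 h the control libraries held 133 and 132 RPKM and the p38-MAPKi libraries 167 and 214 RPKM. At 7 h the controls held 147 and 122 RPKM and the p38-MAPKi libraries 390 and 364 RPKM. At 10 h the controls held 176 and 132 RPKM and the p38-MAPKi libraries 164 and 163 RPKM. The groups did not overlap at 4 and 7 h, while at 10 h both p38-MAPKi values lay between the controls. The log2 fold change was 0.51 (SE 0.20) at 4 h, 1.49 (SE 0.18, a fold of 2.81) at 7 h, and 0.10 (SE 0.13) at 10 h. Without replicate 2 of the 10 h controls the last value became -0.11. The counts behind these values were large, at 2824 to 7905 reads per library. For Mt1 and the other members, the SE at 4 h uses a variance set by the level of the gene and not its own spread between libraries.

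Mt2 followed the same course at a higher level. At 4 h the controls held 304 and 261 RPKM and the p38-MAPKi libraries 426 and 441 RPKM. At 7 h the controls held 352 and 273 RPKM and the p38-MAPKi libraries 731 and 758 RPKM. At 10 h the controls held 433 and 338 RPKM and the p38-MAPKi libraries 441 and 465 RPKM. The p38-MAPKi libraries lay above the controls at all 3 time points, at 10 h by little more than the distance from 433 to 441 RPKM. The log2 fold change was 0.62 (SE 0.21) at 4 h, 1.26 (SE 0.20, a fold of 2.40) at 7 h, and 0.24 (SE 0.12) at 10 h. Reads of Mt2 numbered 2801 to 7774 per library.

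Together the 2 metallothioneins took 331 ± 18.1 of every 1000000 reads (SD, n = 2) in controls and 492 ± 47.8 under p38-MAPKi at 4 h. These figures were 352 ± 54.8 and 908 ± 12.03 at 7 h and 419 ± 78.1 and 470 ± 8.58 at 10 h. The highest control library, at 474 of every 1000000 reads, lay within the range of the p38-MAPKi libraries of 10 h, and all p38-MAPKi libraries of 7 h lay far above it, at 899 and 916. In RPKM, Mt1 appears to be the lesser of the pair, but the deposited value of Mt1 was divided by a length of 1246 bases, the union of its exons, although its transcript Mt1-201 has 549 bases. By reads, the ratio of Mt1 to Mt2 lay between 0.743 and 1.13 in the 12 libraries, so that the metallothioneins contributed nearly equal numbers. The ratio was 1.02 and 1.13 in the p38-MAPKi libraries of 7 h, 0.743 and 0.789 in those of 10 h, and 0.828 to 1.08 in the controls. At 7 h the p38-MAPKi libraries lay above the controls of that time (0.883 and 0.946), and at 10 h they lay below (0.828 and 0.862).

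Slc30a1, the plasma membrane exporter, differed in the opposite sense at the first and the last time point. At 4 h the controls held 6.91 and 8.22 RPKM and the p38-MAPKi libraries 12.02 and 11.7 RPKM. At 7 h the controls held 5.58 and 9.19 RPKM and the p38-MAPKi libraries 8.14 and 10.7 RPKM. At 10 h the controls held 7.85 and 9.35 RPKM and the p38-MAPKi libraries 6.85 and 7.74 RPKM. The p38-MAPKi libraries were thus above the controls at 4 h, overlapped them at 7 h, and were below them at 10 h by a narrow margin. The log2 fold changes were 0.66 (SE 0.23), 0.38 (SE 0.27), and -0.24 (SE 0.12). The value of 7 h rested on the 2 controls, which were themselves far apart, and ranged from 0.02 to 0.74 when either of these was left out.

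Slc30a2, the vesicular transporter, was the least abundant of the genes and stood above the controls without overlap at every time point. The control libraries held 1.39 and 2.75 RPKM at 4 h, 2.23 and 2.04 RPKM at 7 h, and 2.20 and 1.87 RPKM at 10 h. The p38-MAPKi libraries held 4.37 and 5.20 RPKM, 4.64 and 4.83 RPKM, and 3.41 and 4.78 RPKM at the same times. Every p38-MAPKi library was above every control library of the series. The log2 fold changes were 1.28 (SE 0.30), 1.15 (SE 0.27), and 0.997 (SE 0.21). With 1 library left out the value ranged from 0.79 to 1.77 at 4 h and from 0.75 to 1.24 at 10 h, and over the other settings it went down to 0.74 at 10 h. Its reads numbered 85 to 179 in controls and 186 to 417 under p38-MAPKi, fewer than those of the other 4 genes. Genes with p38-MAPKi above control without overlap at all 3 time points, as Slc30a2 and Mt2 were, made up 3.61% of the 10466 genes tested throughout.

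Mtf1, which encodes the zinc sensor, was lower under p38-MAPKi in each comparison. The control libraries held 6.73 and 7.18 RPKM at 4 h, 7.02 and 7.25 RPKM at 7 h, and 7.00 and 7.30 RPKM at 10 h. The p38-MAPKi libraries held 5.97 and 5.78 RPKM, 5.14 and 4.87 RPKM, and 6.74 and 5.81 RPKM. The controls varied little, from 6.73 to 7.30 RPKM, and only the p38-MAPKi library with 6.74 RPKM reached that range. The log2 fold changes were -0.24 (SE 0.24), -0.51 (SE 0.21), and -0.19 (SE 0.11). The overlapping gene 1110065P20Rik held 175 to 435 reads against 515 to 1514 for Mtf1, and the part of its reads in the value of Mtf1 was not tested.

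**Figure D2:**
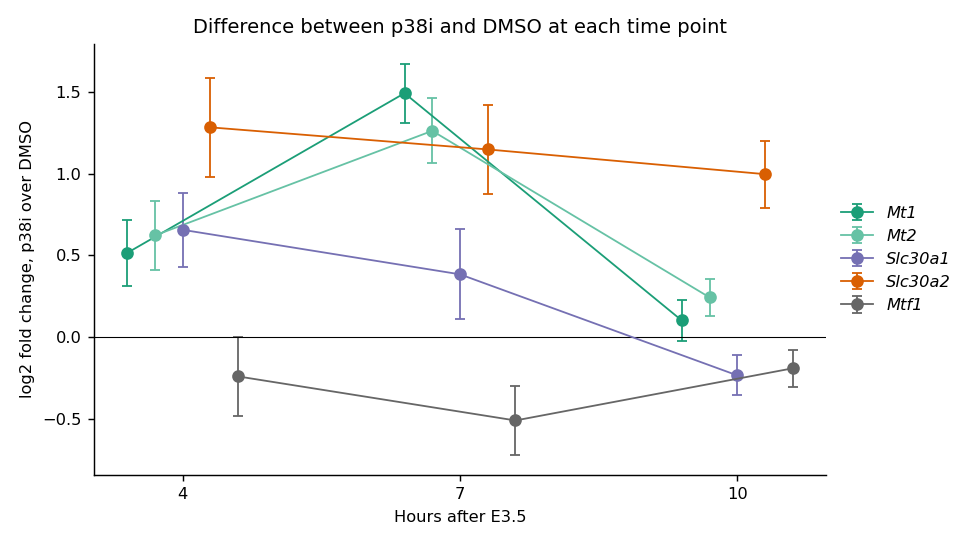
The log2 fold change of p38i over DMSO (y axis) at 4, 7, and 10 h after E3.5 (x axis) for the 5 genes, with bars of 1 standard error of the linear model on 4 libraries. At 4 h the bars use a variance set by the level of the gene and not its own spread between libraries. Mt1 (1.49) and Mt2 (1.26) stand highest at 7 h, Slc30a2 stays between 0.997 and 1.28, Slc30a1 passes from 0.66 to -0.24, and Mtf1 stays below 0.

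Set side by side, 4 of the 5 genes lay above the controls without overlap at 4 h and 1 below, 3 above and 1 below at 7 h, and 2 above and 2 below at 10 h. Of all genes tested, 26.8% lay above and 13.7% below at 4 h, 23.0% above and 38.7% below at 7 h, and 22.6% above and 29.6% below at 10 h. The shares of genes called at an adjusted p under 0.05 by limma were 0.909%, 2.13%, and 0.803%. Since these contrasts were used to choose the 5 genes, nothing is read from their counts against these shares. The 3 comparisons use different libraries, and the order of the time points within each gene was not tested.

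The difference between p38-MAPKi and control varied with the length of a gene over the whole table, most at 7 h, and the 5 genes fall at different lengths. In the shortest decile of genes, 1096 genes of up to 1344 bases that included Mt1 and Mt2, the median log2 fold change at 7 h was 0.47. It was -0.12 in the decile of Slc30a2, -0.24 in that of Slc30a1, and -0.41 in that of Mtf1. Within their decile, 80 of 1096 genes had a higher log2 fold change than Mt1 and 116 a higher one than Mt2, and 9 of 1093 had a higher one than Slc30a2 in its own. Mtf1 lay in the midst of its decile, with 662 of 1094 genes above it. When the trend with length was removed, the log2 fold changes at 7 h became 1.25 for Mt1, 0.83 for Mt2, 0.64 for Slc30a1, 1.26 for Slc30a2, and -0.08 for Mtf1. When it was removed by the median length of the annotated transcripts, a choice made after the data were seen, they became 1.46, 1.09, 0.73, 1.45, and -0.49, so that the value of Mtf1 depended on which length it was given. The medians by decile ran from 0.23 to -0.18 at 4 h, and at 10 h the deciles that held the 5 genes had medians of -0.04 to -0.02. Without the shallowest library, replicate 1 of p38-MAPKi at 7 h, Mt1 was at 1.44 and Mt2 at 1.29.

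**Figure D3:**
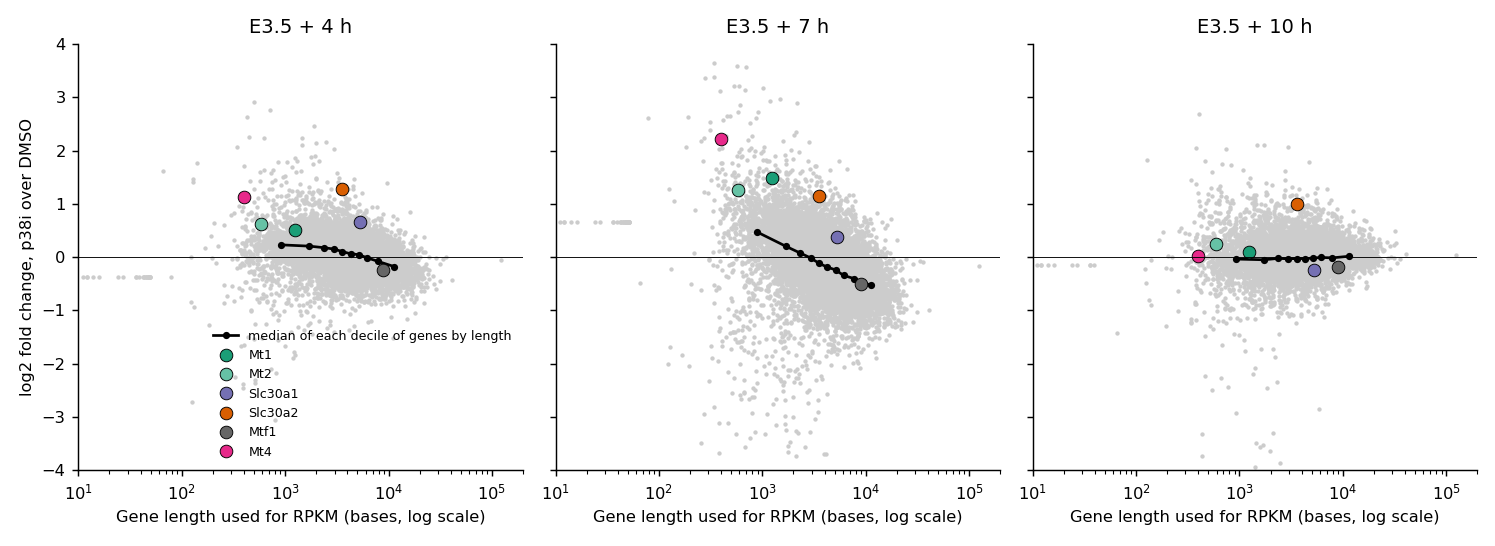
The log2 fold change of p38i over DMSO (y axis) against the gene length used for RPKM (x axis, log scale) for all tested genes (grey) at 4, 7, and 10 h, with the median of each decile of genes by length in black and Mt1, Mt2, Slc30a1, Slc30a2, Mtf1, and Mt4 in colour. At 7 h the black line falls with length, Mt1, Mt2, Slc30a1, and Slc30a2 stand above it, and Mtf1 lies close to it. No gene at 4 h, 5 genes at 7 h, and 14 genes at 10 h lie beyond the y axis limit of 4. The points in a row at the far left are very short genes without a read, to which the table gives the value of 0.9 of a read.

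In control embryos Mt1, Slc30a1, Slc30a2, and Mtf1 moved little over the 6 h between the first and the last time point, while Mt2 stood higher at the end. These comparisons share the control libraries with those that drew attention to the genes. Between 4 h and 10 h, Mt2 was 0.44 higher on the log2 scale (SE 0.13, limma adjusted p = 0.163), with both 10 h libraries above both 4 h libraries, as in 42.3% of all genes tested. Mt1 differed by 0.20 (SE 0.13, limma adjusted p = 0.478), Slc30a1 by 0.18 (SE 0.16, limma adjusted p = 0.577), Slc30a2 by 0.05 (SE 0.31, limma adjusted p = 0.954), and Mtf1 by 0.04 (SE 0.14, limma adjusted p = 0.911). Of all genes tested, 0.471% were called in this comparison, 0.492% from 4 h to 7 h, and 0.0552% from 7 h to 10 h, and 0 of the 5 genes were called by limma in any of them. At an unadjusted p under 0.05 limma gave Mt2 from 4 h to 10 h and no other member, against 15.2% of all genes in that comparison, 4.79% from 4 h to 7 h, and 3.79% from 7 h to 10 h. The adjusted p of this value of Mt2 ranged from 0.00587 to 0.989 over the other settings, and it passed with the replicate block (log2 fold change 0.44, limma adjusted p = 0.0106) and with voom on the recovered reads (0.44, limma adjusted p = 0.00587).

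Of the cluster's other genes, Mt4, a metallothionein known from stratified squamous epithelium, rose at 4 h and 7 h, with no such difference at 10 h, while Mt3, known from neurons, was too low to be tested. The controls held 3.97 and 2.61 RPKM of Mt4 at 4 h, 5.24 and 3.01 RPKM at 7 h, and 3.96 and 3.99 RPKM at 10 h. The p38-MAPKi libraries held 6.19 and 7.90 RPKM, 23.5 and 14.4 RPKM, and 4.11 and 3.90 RPKM. These levels rest on few reads, 19 to 44 per control library, 60 and 68 under p38-MAPKi at 4 h, 105 and 100 at 7 h, and 36 and 38 at 10 h. The log2 fold change was 1.12 (SE 0.26, limma adjusted p = 0.00470) at 4 h, 2.21 (SE 0.32, limma adjusted p = 0.0456) at 7 h, and 0.01 (SE 0.12, limma adjusted p = 0.970) at 10 h. The SE and p of 4 h use a variance set by the level of the gene and not its own spread between libraries. Mt4 was listed with earlier results of these data known, so its p-values are not an independent test. Mt4 is in the shortest decile of genes, in which 30 of 1096 genes had a higher log2 fold change at 7 h, and with the trend with length removed it stood at 1.71 (limma adjusted p = 0.103). Its call was lost in 9 of 12 other settings at 4 h and in 5 of 12 at 7 h, with the direction kept. At 7 h it was lost without replicate 2 of the controls (limma adjusted p = 0.195). At 4 h it was lost without replicate 1 of the controls (limma adjusted p = 0.0613), replicate 2 of the controls (limma adjusted p = 0.578), or replicate 2 of p38-MAPKi (limma adjusted p = 0.110). Reads of Mt3 numbered 2 to 26 per library.

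Around these genes, 67 others of metal handling and of the responses that induce metallothioneins were read from 8 lists, of which 51, 52, and 53 were tested at 4, 7, and 10 h. Apart from Mt4, 0 were called at 4 h and 0 at 7 h by limma, and 3 fell at 10 h. Of all genes tested, 0.909%, 2.13%, and 0.803% were called at these times. At an unadjusted p under 0.05, Mt4 included, limma gave 2, 16, and 8 of them at the 3 times, while 9.42%, 28.4%, and 19.8% of all genes tested had such a p. With 12 libraries in 1 fit, 13 of the 52 genes (25%) were called at 7 h, against 23.6% of all genes. With the replicate block there were 10 (19.2%, against 18.5%), and with voom on the recovered reads 9 (17.3%, against 15.8%). At 7 h the listed genes were thus called about as often as all genes in each of these settings. At 10 h the share called was higher among the listed genes than among all genes, on few genes. The main fit called 3 of 53 listed genes there and 88 of all 10959. With the replicate block these counts were 4 and 410, with voom 5 and 523, and with 12 libraries in 1 fit 0 and 0. The median log2 fold change of all 67 listed genes that were tested was 0.03, -0.32, and -0.08, against 0.07, -0.14, and -0.02 over all genes tested. These medians were not corrected for the trend with length. The lists were chosen with earlier results of these data known, so the shares called among the listed genes are a description.

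Among the other zinc exporters and vesicular transporters of the Slc30 family, 0 of 6 tested genes were called by limma at any time, and at an unadjusted p under 0.05 there was 0 at 4 h, 1 at 7 h (28.4% of all genes), and 0 at 10 h. Slc30a6, which supplies zinc to the secretory pathway and was the most abundant of them, held 15.4 ± 0.235 RPKM in controls and 14.8 ± 0.0536 under p38-MAPKi at 7 h (SD, n = 2), with a log2 fold change of -0.06 (SE 0.18, limma adjusted p = 0.831). Slc30a4, a vesicular transporter, had the largest difference at 7 h, with 15.7 ± 0.283 and 10.3 ± 0.265 RPKM and a log2 fold change of -0.62 (SE 0.18, limma adjusted p = 0.0766). The median of the family was -0.09, -0.24, and -0.08 at the 3 times. With the trend with length removed, that of 7 h became 0.06, and -0.04 by the median transcript length.

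The importers of the Slc39 family bring zinc into the cytosol, and 0 of 11 tested genes were called by limma at any time, with 0, 2 (28.4% of all genes), and 1 (19.8%) at an unadjusted p under 0.05. Slc39a4 (ZIP4), the most abundant, held 116 ± 22.3 RPKM in controls and 95.4 ± 0.536 under p38-MAPKi at 7 h, and 121 ± 1.25 and 105 ± 3.61 RPKM at 10 h (SD, n = 2). Its log2 fold changes there were -0.27 (SE 0.19, limma adjusted p = 0.366) and -0.19 (SE 0.06, limma adjusted p = 0.154). Slc39a13 had the largest log2 fold change at 7 h, -1.65 (SE 1.23, limma adjusted p = 0.395), which came from 1 library. The controls held 1.02 and 1.04 RPKM and the p38-MAPKi libraries 0.0913 RPKM, from 5 reads in the shallowest library, and 1.18 RPKM, so that the groups overlapped. The medians of the importers were 0.00, -0.27, and -0.08. With the trend with length removed, that of 7 h became -0.20, and -0.15 by the median transcript length.

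Other genes described as targets of MTF1 were not called by limma in 4 of 4 tests at each time, with 1 (9.42% of all genes), 1 (28.4%), and 0 at an unadjusted p under 0.05. Csrp1, a LIM domain protein, held 158 ± 18.0 and 139 ± 3.09 RPKM at 7 h (SD, n = 2), with a log2 fold change of -0.19 (SE 0.17, limma adjusted p = 0.500). Selenow, a small selenoprotein, held 60.0 ± 20.0 and 101 ± 29.8 RPKM at 7 h, a log2 fold change of 0.76 (SE 0.27, limma adjusted p = 0.113), with the p38-MAPKi libraries above the controls. The median of this list at 7 h was -0.38, against -0.14 over all genes. With the trend with length removed it was -0.26, against 0.01 over all genes. By the median transcript length it was -0.32, against -0.005.

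For copper, 0 of 7 tested genes were called by limma at any time, with 0, 3 (28.4% of all genes), and 1 (19.8%) at an unadjusted p under 0.05. Atox1, the copper chaperone, held 161 ± 37.0 and 341 ± 79.0 RPKM at 7 h (SD, n = 2), with a log2 fold change of 1.08 (SE 0.23, limma adjusted p = 0.0501). Sod1, the copper and zinc superoxide dismutase, held 271 ± 65.5 and 501 ± 125 RPKM at 7 h, a log2 fold change of 0.89 (SE 0.24, limma adjusted p = 0.0670), and 295 ± 37.5 and 224 ± 24.1 RPKM at 10 h, a log2 fold change of -0.40 (SE 0.11, limma adjusted p = 0.127). The median of the copper list at 7 h was 0.47, against -0.14 over all genes, and 3 of its 7 tested genes, Atox1 (541 bases), Sod1 (646 bases), and Ccs, were in the shortest decile of genes, whose median was also 0.47. With the trend with length removed the log2 fold change was 0.63 for Atox1 and 0.48 for Sod1, and the median of the list was 0.48.

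For iron, 1 of 13 tested genes was called at 10 h and 0 of 12 at each of 4 and 7 h, where 0 and 5 (28.4% of all genes) had an unadjusted p under 0.05 in limma. At 10 h 0.803% of all genes were called. Tfrc, the transferrin receptor, fell at 10 h from 12.8 ± 0.297 to 8.75 ± 0.109 RPKM (SD, n = 2), with a log2 fold change of -0.55 (SE 0.08, limma adjusted p = 0.0490), although the call was lost without any 1 of the 4 libraries (limma adjusted p of 0.0755 to 0.117). Fth1, the ferritin heavy chain, was the most abundant gene of the lists, with 708 ± 136 and 974 ± 49.8 RPKM at 7 h and a log2 fold change of 0.47 (SE 0.21, limma adjusted p = 0.181). Ncoa4, the receptor that delivers ferritin for degradation, held 2.83 ± 0.449 and 1.37 ± 0.468 RPKM at 7 h, a log2 fold change of -1.08 (SE 0.40, limma adjusted p = 0.126).

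Among genes of the heavy metal and oxidative stress response, 2 of 5 tested genes fell at 10 h and 0 were called by limma at 4 or 7 h, where 0 and 1 (28.4% of all genes) had an unadjusted p under 0.05. The share of all genes called at 10 h was 0.803%. Srxn1, which encodes sulfiredoxin, fell from 45.7 ± 0.273 to 24.0 ± 3.92 RPKM (SD, n = 2), with a log2 fold change of -0.94 (SE 0.11, limma adjusted p = 0.0398). Gclm, a subunit of the enzyme that begins glutathione synthesis, fell from 17.2 ± 0.505 to 10.1 ± 1.07 RPKM, a log2 fold change of -0.76 (SE 0.10, limma adjusted p = 0.0398). The call of Gclm was lost without replicate 2 of the controls (limma adjusted p = 0.0645) or replicate 1 of p38-MAPKi (limma adjusted p = 0.0586). Hmox1, heme oxygenase 1, held 35.2 ± 0.858 and 21.1 ± 5.30 RPKM at 10 h, a log2 fold change of -0.76 (SE 0.16, limma adjusted p = 0.0851). At 7 h, when Mt1 and Mt2 were highest, Hmox1 stood at -0.49 (SE 0.28, limma adjusted p = 0.278) and Srxn1 at 0.10 (SE 0.22, limma adjusted p = 0.791).

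Among glucocorticoid-responsive genes, 0 were called by limma of 5 tested at 4 h and of 6 tested at 7 and 10 h, with 0, 2 (28.4% of all genes), and 0 at an unadjusted p under 0.05. Klf9, a transcription factor, held 33.2 ± 3.44 and 25.1 ± 5.61 RPKM at 7 h (SD, n = 2), with a log2 fold change of -0.42 (SE 0.21, limma adjusted p = 0.214). Per1, a clock gene, held 2.45 ± 0.396 and 1.12 ± 0.307 RPKM, a log2 fold change of -1.15 (SE 0.43, limma adjusted p = 0.126). At 7 h 0 of the 6 genes lay above their controls without overlap (23.0% of all genes) and 5 lay below (38.7%).

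**Figure D4:**
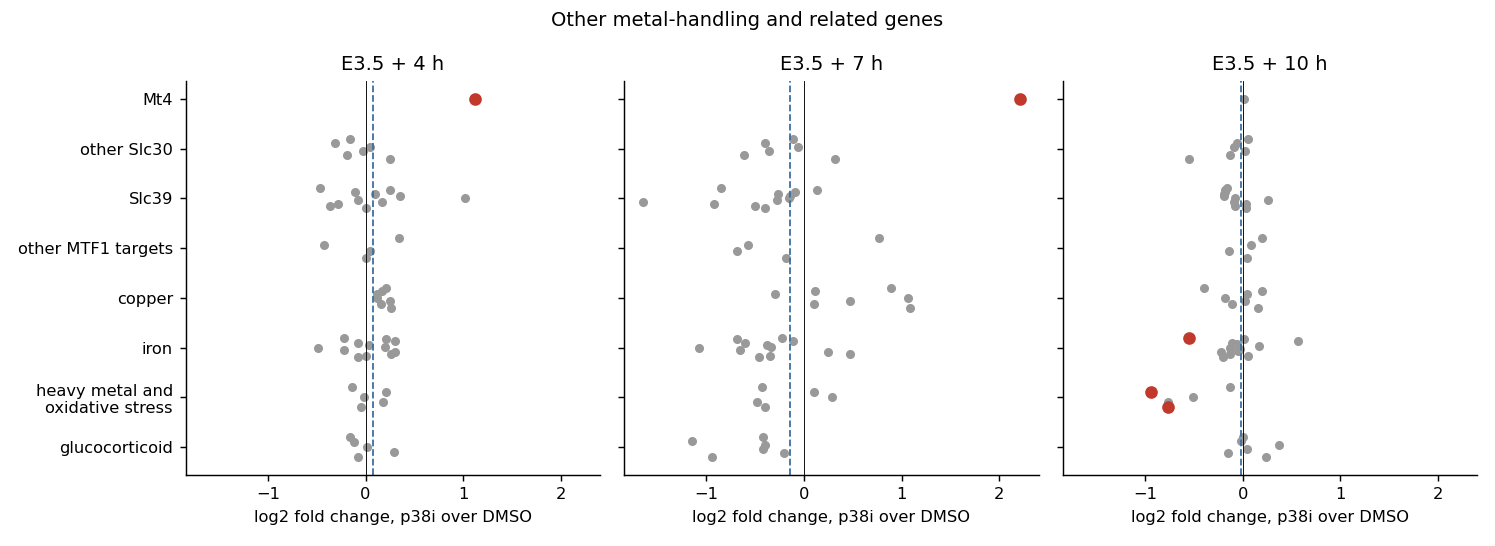
The log2 fold change of p38i over DMSO (x axis) at 4, 7, and 10 h for each tested gene of the 8 lists (rows), in red where the adjusted p of limma was under 0.05 and grey otherwise, with a dashed line at the median of all tested genes. Mt4 stands alone to the right at 4 h (1.12) and 7 h (2.21), and Tfrc, Srxn1, and Gclm are the red points to the left at 10 h.

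The genes whose log2 RPKM was most like that of each member were sought over the 12 libraries, which share the groups and the differences in depth, so that the coefficients are a description. For Mt1, among 10715 genes, these were Brix1 (Pearson's r = 0.983), Pdrg1 (0.978), Upf3b (0.968), Mdp1 (0.963), and Arpc5l (0.960). For Mt2 they were Rchy1 (0.948), Ddit4l (0.940), and Mdp1 (0.939), while Mt1 and Mt2 were alike with r = 0.943. Most of the range of Mt1 came from the 2 libraries of p38-MAPKi at 7 h, and over the other 10 libraries r was 0.926 for Brix1 and 0.834 for Upf3b. For Slc30a1 the genes were Ccdc28a (0.909), Pcyt2 (0.884), and Sh3bp5l (0.871), and for Slc30a2 they were Oas1c (0.927), Nccrp1 (0.920), and Dffb (0.919). For Mtf1 they were Cnot6 (0.964), Sox21 (0.962), and Fzd5 (0.962). Between members, r was -0.90 for Mt1 and Mtf1, 0.68 for Mt1 and Slc30a2, and 0.30 for Mt1 and Slc30a1. These values include the 2 libraries of p38-MAPKi at 7 h and were not corrected for the trend with length.

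Lineage markers were also compared between p38-MAPKi and control embryos. Of all genes tested, 13.7%, 38.7%, and 29.6% lay below the controls without overlap at 4, 7, and 10 h. The share of genes below at all 3 times was not determined. Cdx2, a transcription factor of the trophectoderm, lay below the controls without overlap at all 3 times, with log2 fold changes of -0.42 (limma adjusted p = 0.490), -0.49 (limma adjusted p = 0.127), and -0.22 (limma adjusted p = 0.110). So did Gata3, another such factor, at -0.54 (limma adjusted p = 0.227), -0.68 (limma adjusted p = 0.0652), and -0.30 (limma adjusted p = 0.0871), and Sox2, a factor of the epiblast, at -0.23 (limma adjusted p = 0.764), -0.37 (limma adjusted p = 0.192), and -0.19 (limma adjusted p = 0.212). Other trophectoderm markers did not fall throughout. At 4 h Tfap2c (0.25), Krt8 (0.21), and Krt18 (0.16) lay above the controls without overlap, as did 26.8% of all genes, and Eomes (0.16) overlapped. At 7 h Eomes (-0.39) lay below, and Tfap2c (-0.18), Krt8 (0.08), and Krt18 (0.16) overlapped. At 10 h all of these overlapped, from -0.08 for Krt18 to 0.00 for Krt8. The median of the 6 trophectoderm markers was 0.16, -0.28, and -0.06. Among the other epiblast markers, Nanog (-0.14, -0.09, and -0.10) overlapped the controls at all 3 times. Prdm14, Esrrb, and Klf2 overlapped at 4 h and lay below at 7 and 10 h, while Fgf4 lay below at 4 h and overlapped afterwards. The median of the 6 epiblast markers was -0.18, -0.31, and -0.15. By limma 0 of 17 tested markers were called at any time. At an unadjusted p under 0.05 there were 4 at 4 h (Cdx2, Gata3, Pdgfra, and Amhr2), 5 at 7 h (Cdx2, Gata3, Prdm14, Esrrb, and Gata6), and 5 at 10 h (Cdx2, Gata3, Sox2, Klf2, and Gata4), against 9.42%, 28.4%, and 19.8% of all genes. These markers were lower under p38-MAPKi with the exception of Amhr2.

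Summed over a list, the 6 trophectoderm markers held 1734 to 1888 RPKM in controls and 1911 to 1953 RPKM under p38-MAPKi at 4 h, and the groups overlapped at 7 and 10 h. The 6 epiblast markers overlapped at 4 h, and held 223 to 225 RPKM in controls and 186 to 209 RPKM under p38-MAPKi at 7 h, and 215 to 221 and 194 to 201 RPKM at 10 h. The 6 primitive endoderm markers overlapped at 4 h, and held 116 to 142 RPKM and 91.9 to 94.3 RPKM at 7 h, and 120 to 124 and 129 to 130 RPKM at 10 h. At 7 h the sums of the epiblast and the primitive endoderm were thus both below their controls. At that time 38.7% of all genes tested lay below without overlap, and the median log2 fold change of all genes was -0.14. The largest part of the epiblast sum was Nanog, whose means were 121 RPKM in controls and 114 RPKM under p38-MAPKi at 7 h, with overlap. Most of the primitive endoderm sum was Gata6, whose means were 115 RPKM in controls and 83.0 RPKM under p38-MAPKi at 7 h. At 10 h its means were 107 and 115 RPKM, without overlap, and the higher sum came mainly from it. Gata4 then lay below its controls without overlap (3.10 and 1.85 RPKM). Sox17 (3.58 and 2.79 RPKM) and Pdgfra (8.83 and 9.22 RPKM) overlapped there. This sum is therefore not a level of the whole lineage. Cumulus cell markers summed to 3.41 to 3.62 RPKM in controls and 4.85 to 7.62 RPKM under p38-MAPKi at 4 h, and to 5.13 to 5.24 and 5.80 to 6.10 RPKM at 7 h, with 2 to 4 of the 5 markers without a read. Nearly all of the sum at 4 h was Amhr2, whose means were 3.33 and 6.06 RPKM, a difference of 0.83 on the log2 scale (limma adjusted p = 0.102). The part of these markers in the levels of the 5 genes was not tested.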

How the data were processed

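The authors trimmed the single-end reads with Trim Galore 0.4.1, mapped them with HISAT2 2.0.5 to GRCm38 (versions per the labels), and deposited log2 RPKM values per gene from SeqMonk. The strand setting, the treatment of reads with several positions, and the merging of isoforms are not given in the sources used here. Levels were taken as 2 to the power of the deposited value. Comparisons were made with limma 3.58.1 (lmFit, eBayes with trend) in R 4.3.3 on the deposited log2 values, in the 4 libraries of each comparison, over genes that reached 1 RPKM in 2 or more of them. p-values were adjusted by the Benjamini-Hochberg method over all genes tested, with a threshold of 0.05. The members and the lists were chosen with earlier results of these data known. For the members no p is given for p38-MAPKi against control.

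A gene without a read held the value of 0.9 of a read, and with gene lengths from GENCODE M21 or, failing these, lengths found by trial, the values came out as whole reads for 34245 of 34245 genes (100%, within 0.01 of a read). The recovered reads gave the depths and entered limma's voom as an alternative, which called 34, 1726, and 523 genes at 4, 7, and 10 h. By this stored value, 23, 30, and 10 genes of at most 51 bases without a read in the 4 libraries passed the filter at 4, 7, and 10 h. The fit and the recovery were tested on simulated data. For p38-MAPKi at E3.5 + 4 h and for controls from 4 to 7 h, limma gave all genes the variance of the trend. In these 2 main fits the SE and p of a gene do not reflect its own spread between pools. Replicates are taken as separate pools. In the other main fits p-values rest on the spread between 2 pools per group, drawn by limma towards the trend. The other genes named are, for each list, the most abundant, the one with the largest difference at 7 h, and those called, and the likeness lists hold the 5 genes nearest to Mt1 and the 3 nearest to each other member. Alternatives were a pseudocount of 1 RPKM, median centring, no filter, a replicate block, removal of the length trend (loess, span 0.5), voom, 12 libraries in 1 fit, and leaving out each library.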

Additional observations from a re-analysis of the deposited data

Results flagged for a closer look

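Among the members and listed genes described with their values, 4 changed sides, namely 1 of the 5 members and 3 listed genes. Their p38-MAPKi libraries lay wholly on one side of the controls at one time point and wholly on the other at another. This held for 11 of the 51 listed genes tested at all 3 times (21.6%) and for 19.4% of all genes tested at all 3 times. The lineage marker Gata6, which is not on these lists, also changed sides, below its controls at 7 h and above them at 10 h. The difference between the time points was not tested. For Slc30a1 the log2 fold change at E3.5 + 10 h was lower than that at E3.5 + 4 h by a difference of -0.89. For Hmox1 the same difference was -0.94. For Sod1 the log2 fold change at E3.5 + 10 h differed from that at E3.5 + 7 h by -1.28, and for Csrp1 by 0.23, the smallest of the 4.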

How the results depend on the processing

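Under the 12 alternatives the members kept the direction of every p38-MAPKi difference except that of Mt1 at E3.5 + 10 h, whose log2 fold change ranged from -0.11 to 0.31 with 1 library left out. Mt1 at E3.5 + 7 h ranged from 1.25 to 1.68, Mt2 from 0.83 to 1.45, and Slc30a2 from 0.87 to 1.45 over the other settings. Median centring moved the median log2 fold change of all genes at 7 h from -0.14 to 0.05, and Mtf1 at 7 h from -0.51 to -0.32. With 2 libraries per group the counts of called genes depended strongly on the setting, and the cause was not tested.

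Of all genes, 98, 233, and 88 were called under p38-MAPKi at 4, 7, and 10 h, and 53, 6, and 51 in controls from 4 to 7 h, 7 to 10 h, and 4 to 10 h. A pseudocount of 1 RPKM gave 509 at 7 h and 3 in controls from 7 to 10 h. Median centring gave 0 by limma at 4 h, 7 h, and in controls from 4 to 7 h, where 1048, 3063, and 320 genes had an unadjusted p under 0.05. Without the filter 0 were called by limma at 4, 7, and 10 h and in controls from 4 to 7 h and 7 to 10 h (1240, 3621, 2833, 847, and 1008 at an unadjusted p under 0.05), and 2 in controls from 4 to 10 h. Removal of the length trend gave 0 by limma at 4 h, 7 h, and in controls from 4 to 7 h (1135, 2455, and 401 at an unadjusted p under 0.05) and 3 from 7 to 10 h. The median transcript length, an alternative added after the data were seen, also gave 0 by limma in the first 3 of these (1022, 2746, and 347). Voom on recovered reads gave 34, 1726, and 523 under p38-MAPKi and 9 and 479 in controls from 4 to 7 h and 4 to 10 h. In 1 fit of 12 libraries limma called 2586 at 7 h and 0 in the other 5 comparisons, where 1211, 611, 312, 215, and 792 had an unadjusted p under 0.05. Leaving out each library gave 6 to 412, 0 to 2996, and 42 to 107 under p38-MAPKi and 8 to 56, 12 to 209, and 53 to 1183 in controls. The count at 7 h was 0 without replicate 2 of the controls and 2996 without replicate 2 of p38-MAPKi, and that at 4 h was 6 without replicate 1 of the controls and 412 without replicate 1 of p38-MAPKi.

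Of the listed genes, 1, 1, and 3 were called under p38-MAPKi and 0 in each control comparison. At 4 h the count was 0 by limma with median centring, no filter, either length, voom, or 12 libraries in 1 fit. At 7 h the count was 3 with the pseudocount, 9 with voom, 13 with 12 libraries, and 0 with median centring, no filter, or either length. At 10 h it was 0 without the filter and with 12 libraries, and 5 with voom. In controls from 4 to 10 h it was 2 with voom. With 1 library left out it was 0 to 2, 0 to 18, and 1 to 3 under p38-MAPKi and 0 to 1, 0 to 2, and 0 to 9 in controls.

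Same-numbered replicates were not shown to be paired. Their deviations from the group means correlated at -0.01, 0.16, and 0.17 under p38-MAPKi at 4, 7, and 10 h and at 0.07, 0.09, and 0.07 in the control comparisons. With the replicate block 75, 2023, and 410 genes were called under p38-MAPKi and 0 (426 at an unadjusted p under 0.05 in limma), 28, and 536 in controls, and of the listed genes 1, 10, and 4 under p38-MAPKi and 3 in controls from 4 to 10 h. The members' log2 fold changes do not change under the block, but Mt2 in controls from 4 to 10 h (0.44) was called with it (limma adjusted p = 0.0106), as it was with voom (0.44, limma adjusted p = 0.00587).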
